A study of Mus musculus with 24 samples.

Results

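The 6 genes of mouse chromosome 4 described here, which differed between FoxO6 mutant and wild-type (WT) hippocampus and lie 10 to 20 Mb from Foxo6, are Laptm5, Scp2, Dhdds, Nudc, Phactr4 and Clic4. They are 6 of 19938 genes measured with 1 probe each, and 6 of the 16 genes past the threshold among the 249 measured genes of that window. The threshold was an adjusted p under 0.05 for mutant minus WT averaged over both states, so the genes were selected on the genotype difference measured on these arrays, which is given as a description without a test. The same threshold also passes the other 10 genes, which are named further on, and no further ground for the choice of these 6 is given.

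Hippocampal RNA was measured on 24 Affymetrix arrays, from male mice of C57BL/6J-129sv mixed background at an age of 8 to 9 weeks. The mutants are labelled FoxO6 -/- and null, and the labels used here do not describe the allele. The arrays form 4 groups of 6, namely mutant learning, WT learning, mutant basal and WT basal. Learning mice met an empty arena for 10 min, explored a pair of identical unfamiliar objects there for 10 min after 24 h, and were killed 60 min after the task, whereas basal mice had been housed singly for at least 3 days. Learning mice had also been handled daily, so the task, the handling and the housing cannot be told apart. The arrays of a group are called biological replicates, but whether each is a separate animal or a pool is not stated. The spread behind each p-value can therefore not be taken as that between single animals, and the number of arrays limits the precision.

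Genes that lie close together on a chromosome are usually inherited together, and crosses separate them rarely. In a mutant line on a mixed strain background, the DNA around the mutated gene therefore tends to come from the chromosome on which the mutation was made, while distant genes are reshuffled between the parental strains. The Foxo6 mutation and the alleles of linked genes cannot be told apart by genotype here. Array values also depend on how well the RNA pairs with short probes, and RNA level and probe pairing cannot be told apart from these summarised values.

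The 6 genes have unrelated roles. Laptm5 encodes a transmembrane protein of lysosomes that is made by cells of the blood lineage and, in the brain, by microglia. Scp2 encodes sterol carrier protein and a peroxisomal thiolase that shortens branched fatty acids and bile acid precursors. Dhdds encodes the catalytic partner of Nus1 in the enzyme that builds the chain of dolichol, the lipid on which N-glycans are assembled. Nudc encodes a partner of LIS1 and the motor dynein, Phactr4 a regulator that binds protein phosphatase 1 and actin, and Clic4 a member of the chloride intracellular channel family.

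On GRCm38.p6, Laptm5 spans chr4:130912890-130936148, 10.65 Mb to the higher-coordinate side of Foxo6 (chr4:120267078-120287261). Phactr4 (chr4:132355922-132422446) lies 12.09 Mb, Nudc (chr4:133532542-133546027) 13.27 Mb, Dhdds (chr4:133969028-134000957) 13.70 Mb and Clic4 (chr4:135213969-135272760) 14.95 Mb to that same side. Scp2 (chr4:108043830-108144971) is the one on the lower-coordinate side, at -12.22 Mb.

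The 250 bases before the annotated start were available from RefSeq for all 6 genes and are shown for 3 of them, on the strand of the gene. Laptm5 and Scp2 have the largest genotype differences in each direction, and Scp2 and Dhdds are the genes whose window holds the short cyclic AMP response element TGACG, printed in capitals. The Laptm5 window is chr4:130913066-130913315 on the plus strand, the Scp2 window chr4:108118548-108118797 on the minus strand and the Dhdds window chr4:134000883-134001132 on the minus strand (GRCm38.p6). The Laptm5 and Scp2 windows lie inside the annotated span of their genes, and the Dhdds window overlaps its gene in part.
Laptm5: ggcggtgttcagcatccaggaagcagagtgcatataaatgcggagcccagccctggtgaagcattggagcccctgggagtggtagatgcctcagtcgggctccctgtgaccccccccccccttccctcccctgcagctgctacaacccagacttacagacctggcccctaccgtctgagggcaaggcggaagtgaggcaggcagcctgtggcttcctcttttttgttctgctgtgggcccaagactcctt
Scp2: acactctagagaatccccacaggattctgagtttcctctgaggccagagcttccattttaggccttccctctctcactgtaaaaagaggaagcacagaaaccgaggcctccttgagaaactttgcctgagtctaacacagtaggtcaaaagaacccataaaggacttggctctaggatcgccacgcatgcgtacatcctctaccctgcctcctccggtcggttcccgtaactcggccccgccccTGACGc
Dhdds: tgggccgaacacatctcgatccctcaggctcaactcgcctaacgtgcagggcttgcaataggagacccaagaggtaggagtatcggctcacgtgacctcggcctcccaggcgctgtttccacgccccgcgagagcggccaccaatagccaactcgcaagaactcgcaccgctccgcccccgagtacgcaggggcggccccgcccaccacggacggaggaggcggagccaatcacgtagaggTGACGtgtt

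TGACG or its reverse CGTCA occurred in 17.8% of 32851 mouse promoter windows of the same length, and among the 6 genes only in these Scp2 and Dhdds windows. The full element TGACGTCA, which contains TGACG, was in 1.55% of windows and in 0 of the 6. The FoxO core TGTTTAC was in 3.17% and the insulin response core CAAAACA in 5.56%, each on either strand, and in 0 of the 6. A match is a description of the letters, and an absence says only that they are not in this window. The Laptm5 window held 5 CpG dinucleotides, the Scp2 window 10, Nudc 12, Phactr4 20, Clic4 21 and Dhdds 25, where the median window held 6. GC content was 61.2% for Laptm5 and 53.6% for Scp2, and it was highest for Clic4 at 73.2%, against a median of 52.4% over all windows.

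Foxo6 itself had lower values in mutant arrays of either state. Its value (log2, RMA, the scale of every level below) had a median of 6.28 (5.98 to 6.38) in mutant learning arrays and 6.90 (6.62 to 7.04) in WT learning arrays. It was 6.26 (6.18 to 6.59) in mutant basal arrays and 7.04 (6.78 to 7.30) in WT basal arrays, so genotypes did not overlap in either state. The sources used here do not say whether the probe lies inside the altered part of the gene. Within groups, arrays correlated across genes at 0.991 to 0.997. Levels of different probes cannot be compared, so cell type markers give the labelled tissue no strict check. Above the median gene lay 7 of 8 dentate granule cell and 9 of 10 pyramidal cell markers, and also 10 of 10 astrocyte and 9 of 9 oligodendrocyte markers, against 2 of 11 choroid plexus markers.

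Laptm5 was the gene with the largest difference, and it was lower in the mutant. The lowest, median and highest values were 7.42, 7.56 and 7.92 in mutant learning arrays, against 8.10, 8.19 and 8.33 in WT learning arrays. They were 7.59, 7.96 and 8.43 in mutant basal arrays, against 8.38, 8.44 and 8.61 in WT basal arrays. The genotypes did not overlap after learning, and at basal 1 mutant array (replicate 4) reached the WT range. Mutant minus WT averaged over states was -0.55 (95% interval -0.69 to -0.42), which is 0.682 times the WT level, with -0.60 after learning and -0.50 at basal. The mutant arrays varied more than the WT arrays, with an SD of 0.20 after learning and 0.28 at basal, against 0.08 in WT in each state. The spread itself was not tested. In whole tissue, fewer cells of a type and less RNA per cell cannot be told apart.

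Scp2 was higher in the mutant. Its lowest, median and highest values were 8.57, 8.93 and 9.19 in mutant learning arrays, against 8.14, 8.39 and 8.79 in WT learning arrays. They were 8.49, 8.79 and 8.99 in mutant basal arrays, against 8.06, 8.17 and 8.67 in WT basal arrays. The genotypes overlapped in both states, because WT learning replicates 1 and 3 (8.79 and 8.71) and WT basal replicate 3 (8.67) lay inside the mutant range. Mutant minus WT was 0.50 (95% interval 0.33 to 0.66), 1.41 times the WT level, with 0.48 after learning and 0.51 at basal. The spread of Scp2 within groups was a residual SD of 0.23, larger than that of 98.5% of the 3119 genes of similar level, where the median was 0.0967. Laptm5 had 0.18, larger than 93.3% of 3253 genes of its level, whereas Phactr4 had 0.0996, larger than 4.22% of genes of its level.

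Dhdds, the other lipid enzyme, was lower in the mutant by a small step. Values were 9.58, 9.62 and 9.77 (lowest, median, highest) in mutant learning arrays, against 9.73, 9.80 and 9.89 in WT learning arrays. They were 9.58, 9.64 and 9.73 in mutant basal arrays, against 9.70, 9.79 and 9.88 in WT basal arrays. At basal 1 mutant array and 1 WT array lay inside the range of the other genotype, and after learning 1 mutant array and 2 WT arrays did. Mutant minus WT was -0.15 (95% interval -0.21 to -0.09), 0.902 times the WT level, with -0.16 after learning and -0.14 at basal.

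Nudc was higher in the mutant. Values were 10.05, 10.25 and 10.32 in mutant learning arrays, against 9.94, 9.98 and 10.10 in WT learning arrays. They were 10.34, 10.58 and 10.72 in mutant basal arrays, against 10.17, 10.27 and 10.38 in WT basal arrays. The overlap came from mutant learning replicate 3 and from mutant basal replicates 4 and 6. Mutant minus WT was 0.24 (95% interval 0.15 to 0.32), 1.18 times the WT level. Nudc was read by 2 probes, and the brighter one, used here, carries an identifier whose numerical neighbours are on chromosome 8 in 8 of 10 cases and on chromosome 4 in 0, between Unc5d and Mak16. The pseudogene Nudc-ps1 lies on chromosome 8 (chr8:29286222-29286982), and which of the copies that probe reads is uncertain. The other probe, with 10 of 10 neighbours on chromosome 4, gave 0.19 (95% interval 0.11 to 0.27) for mutant minus WT.

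Phactr4 and Clic4 were also higher in the mutant. Phactr4 was read by a dim probe, with a mean of 6.00 over all arrays, where the median gene had 6.91. Phactr4 values were 5.78, 5.91 and 6.02 in mutant learning arrays, against 5.62, 5.80 and 5.97 in WT learning arrays. They were 6.18, 6.31 and 6.41 in mutant basal arrays, against 5.84, 5.94 and 6.13 in WT basal arrays. The genotypes did not overlap at basal, and after learning 4 mutant and 5 WT arrays lay inside the range of the other genotype. Mutant minus WT averaged 0.22 (95% interval 0.13 to 0.32), with 0.11 after learning and 0.34 at basal.

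Clic4 values were 9.70, 9.77 and 10.01 in mutant learning arrays, against 9.58, 9.76 and 9.78 in WT learning arrays. They were 9.80, 9.90 and 10.01 in mutant basal arrays, against 9.57, 9.70 and 9.73 in WT basal arrays. At basal all mutant arrays lay above all WT arrays, and after learning 3 mutant and 4 WT arrays lay inside the range of the other genotype. Mutant minus WT averaged 0.16 (95% interval 0.09 to 0.23), with 0.08 after learning and 0.24 at basal. The difference after learning was 0.03 without mutant learning replicate 6 and 0.05 without WT learning replicate 4. Groups without overlap between genotypes occurred for 0.371% of all genes after learning, where Laptm5 was 1 of the 6, and for 0.431% at basal, where Phactr4 and Clic4 were 2 of the 6. The rule used this contrast, so nothing is read from these counts.

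**Figure D1:**
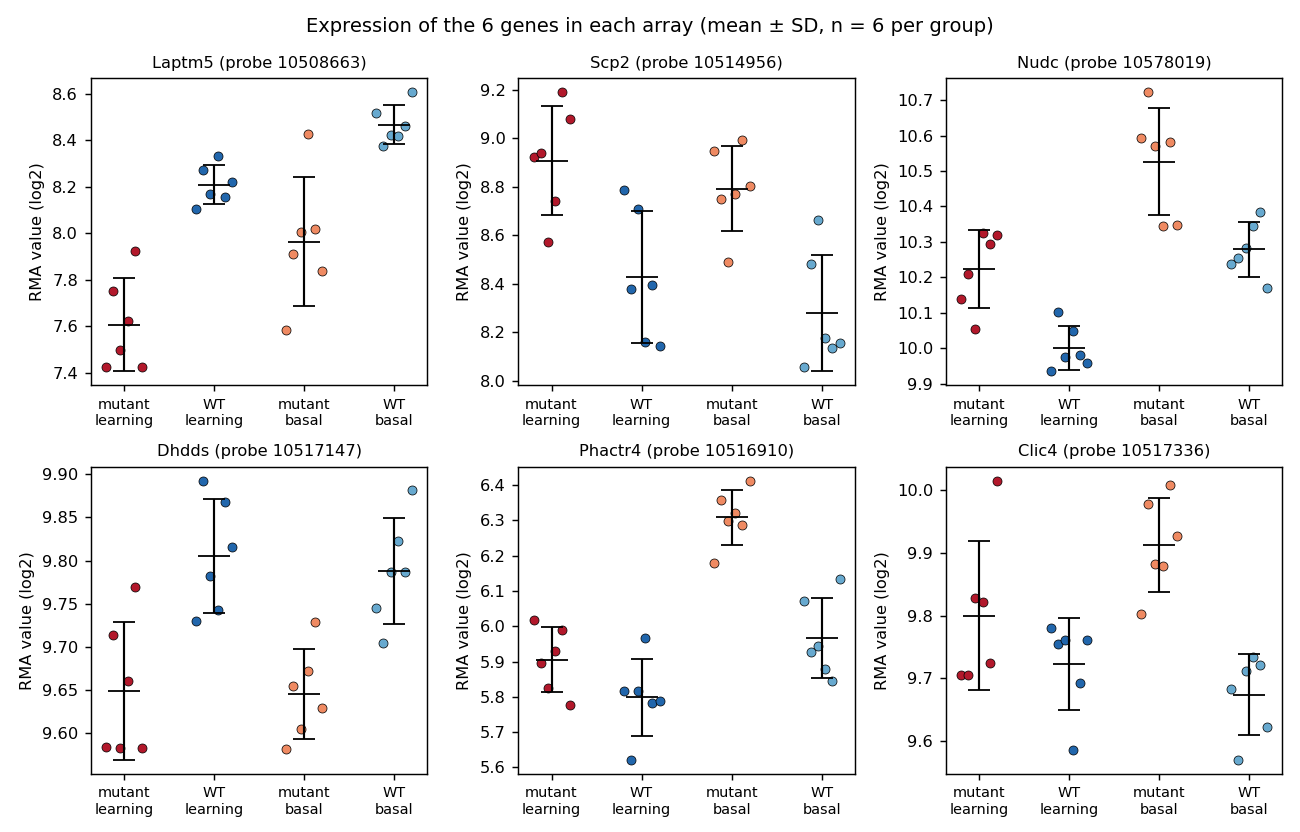
Log2 RMA value of each of the 6 genes (vertical axis) in every array, by group along the horizontal axis, with points for arrays and bars for the mean ± SD (n = 6 per group). Laptm5 separates the genotypes after learning, Phactr4 and Clic4 separate them at basal, and Scp2 has 3 WT arrays inside the mutant range.

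The order of the group levels differed between the genes. For Laptm5 it ran mutant learning, mutant basal, WT learning and WT basal from low to high, and mutant basal arrays overlapped both neighbours in that order. For Nudc it ran WT learning, mutant learning, WT basal and mutant basal, and each neighbouring pair overlapped. For Phactr4 it ran WT learning, mutant learning, WT basal and mutant basal, where mutant basal arrays lay above all others. For Clic4 it ran WT basal, WT learning, mutant learning and mutant basal, and each neighbouring pair overlapped. For Scp2 and Dhdds the order followed genotype, and the 2 states of a genotype overlapped.

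Placed on a scale where the WT mean of a state is 0% and the mutant mean 100%, no array stood with the other genotype for all 6 genes. WT learning replicate 1 lay inside the mutant range for 4 of the 6 genes and WT learning replicate 3 for 3, and mutant learning replicate 3 lay inside the WT range for 3, whereas mutant basal replicates 1 and 2 and WT basal replicates 1 and 6 did so for 0. Mutant basal replicate 4 was at 7.59% for Laptm5 and at 95.9% for Scp2.

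**Figure D2:**
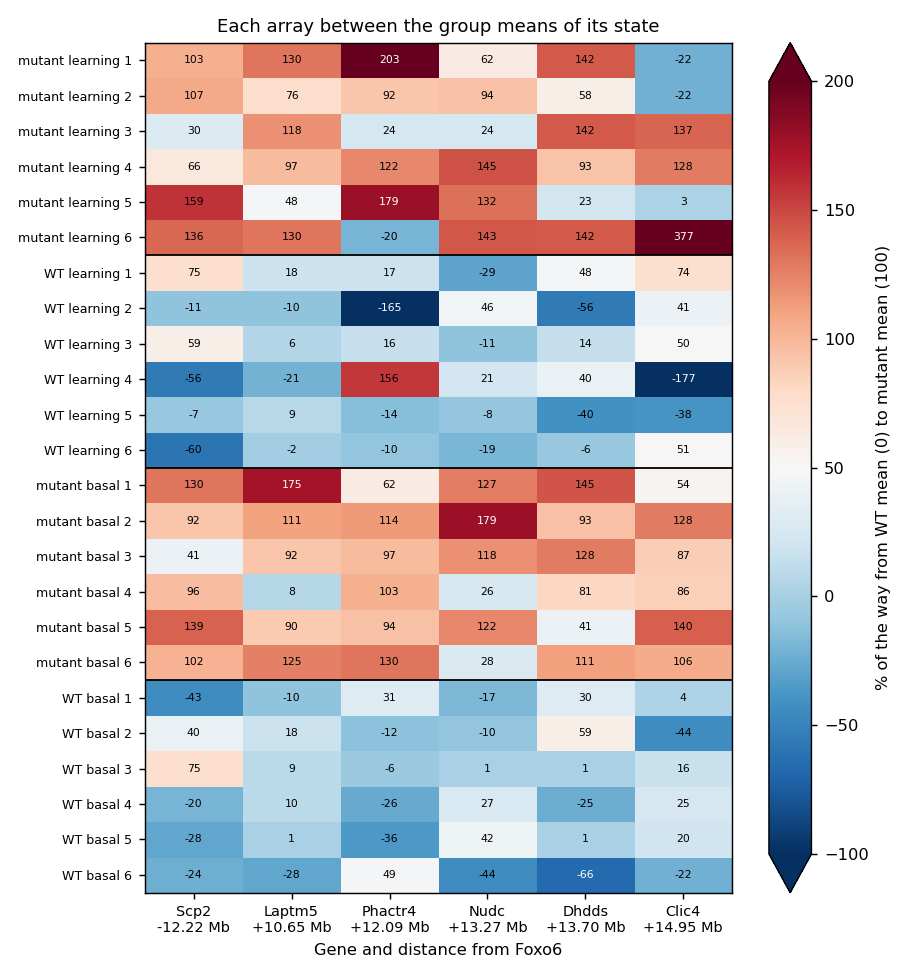
Position of each array (rows) between the WT mean (0%) and the mutant mean (100%) of its state for the 6 genes (columns, ordered by distance from Foxo6 in Mb); colours are capped at -100% and 200% and the printed numbers are not. Mutant basal replicate 4 is at 7.59% for Laptm5 and at 95.9% for Scp2.

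The adjusted p set against the threshold was 7.4e-06 for Laptm5, 0.0015 for Scp2, 0.00201 for Nudc, 0.00941 for Dhdds, 0.0226 for Phactr4 and 0.0274 for Clic4 (limma), where 0.391% of all genes were past the threshold. The other 10 genes past it in the window were Gpn2, Hmgn2, Pnrc2, Trnp1, Mecr, Echdc2, Mroh7, Paqr7, Tmem222 and Stmn1, and of all 16, 9 were higher and 7 lower in the mutant. Just inside the threshold lay Stmn1 at 0.0455, and just outside it Selenon at 0.0601, Rab3b at 0.0687 and Gpatch3 at 0.0834. Selenon differed by 0.17 and Rab3b by -0.31, so Rab3b had a larger difference than Clic4 and lay outside. The nearest called genes beyond the limits of the window were Hcrtr1 at 9.86 Mb (0.25), Ptprf at -2.06 Mb (0.16), Pgm1 at -20.34 Mb (-0.23) and Cplane2 at 20.95 Mb (-0.38). By 10 Mb steps from Foxo6, which was left out, 11 of 127, 13 of 165 and 1 of 114 genes were past the threshold on the higher-coordinate side, and 3 of 123, 3 of 84 and 2 of 37 on the lower side. On all other chromosomes 43 of 18701 were, which is 0.23%.

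**Figure D3:**
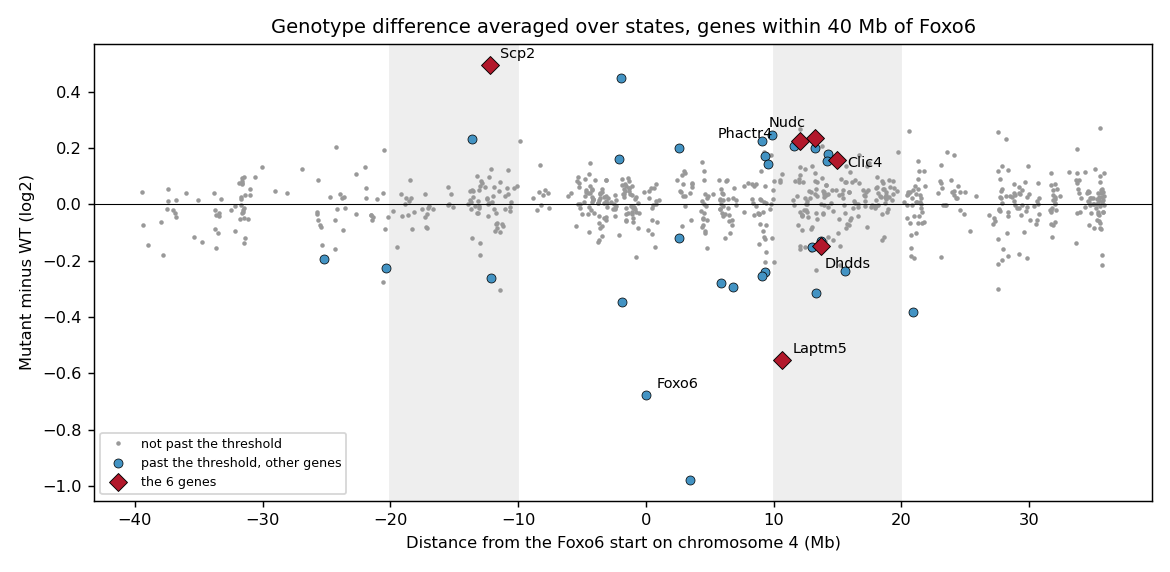
Mutant minus WT (log2, averaged over states) for each measured gene of chromosome 4 within 40 Mb of the Foxo6 start, against distance in Mb, with the 10 to 20 Mb window in grey. Diamonds mark the 6 genes, of which Laptm5 (-0.55) is the lowest and Scp2 (0.50) the highest, and circles mark other genes past the threshold.

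The learning comparison was not used to choose the genes and could be tested. Laptm5, Nudc and Phactr4 fell after learning, whereas Scp2, Dhdds and Clic4 were not called. These are 3 of the 6 genes, where 54.8% of all genes were called, so the share called in either direction is near that of all genes. All 3 calls were falls, where 23.1% of all genes were called as lower, and the share by direction was not tested. Averaged over genotypes, Laptm5 differed by -0.31 (95% interval -0.44 to -0.17, adjusted p = 0.000204, limma), 0.808 times the basal level. Nudc differed by -0.29 (-0.37 to -0.21, adjusted p = 2.37e-07) and Phactr4 by -0.29 (-0.38 to -0.19, adjusted p = 6.37e-06). Scp2 differed by 0.13 (-0.03 to 0.30, adjusted p = 0.172), Dhdds by 0.01 (-0.05 to 0.07, adjusted p = 0.781) and Clic4 by -0.03 (-0.10 to 0.04, adjusted p = 0.447). Clic4 was called as lower, at -0.08 (adjusted p = 0.0474), after a second quantile normalization.

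In the mutant, Phactr4 fell by 0.40 and Nudc, by its brighter probe, fell by 0.30 on the log2 scale, with no overlap between learning and basal arrays. The other Nudc probe differed by -0.26 in the mutant (95% interval -0.37 to -0.15). Its arrays did overlap, with learning values up to 9.91 and basal values from 9.82. Laptm5 fell by 0.36 there with overlapping arrays. These 3 genes were called where 41.3% of all genes were (adjusted p from 1.09e-05 to 0.00238, limma). Clic4 was at -0.11 (95% interval -0.21 to -0.01, adjusted p = 0.0621). It was called without mutant learning replicate 6 (-0.16, adjusted p = 0.00537), which had its highest learning value of 10.01, and without mutant basal replicate 1 (-0.14, adjusted p = 0.0318). Groups without overlap between states occurred for 22.7% of all genes in the mutant and for 25.2% in WT.

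In WT, too, Nudc, Laptm5 and Phactr4 were called, where 43.3% of all genes were. Nudc fell by 0.28 (adjusted p = 0.000139, limma), Laptm5 by 0.26 (adjusted p = 0.0248) and Phactr4 by 0.17 (adjusted p = 0.0425). Nudc and Laptm5 did not overlap between states in WT, and Phactr4 did. Without WT learning replicate 1 or WT basal replicate 6, Laptm5 had an adjusted p of 0.0539 and 0.0584. Phactr4 lost its call without any 1 of WT learning replicates 1, 2, 3, 5 and 6 or of WT basal replicates 1, 2, 3 and 6, where its adjusted p lay between 0.0504 and 0.121. With each array centred on its median, Phactr4 (-0.13, adjusted p = 0.0977) and Laptm5 (-0.22, adjusted p = 0.0656) both lost their calls in WT.

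**Figure D4:**
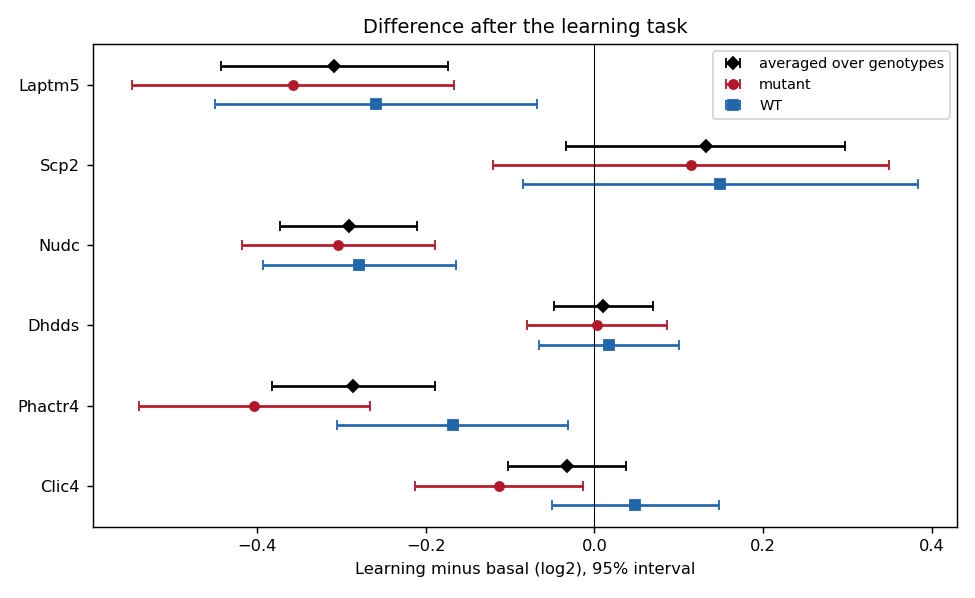
Learning minus basal (log2, horizontal axis, with 95% intervals) for each of the 6 genes, averaged over genotypes (diamonds), in the mutant (circles) and in WT (squares). Laptm5, Nudc and Phactr4 lie below 0 in both genotypes, and the Scp2 and Dhdds intervals include 0.

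Whether the learning difference depended on genotype was tested as an interaction, which subtracts the genotype difference at basal from the one after learning. It is independent of the genotype difference averaged over states, but not of the difference in a single state. Phactr4 and Clic4 separated the genotypes only at basal, so this limit matters for them. limma called 0 of 19938 genes, and 510 had an unadjusted p under 0.05. Phactr4 was at -0.24 (95% interval -0.43 to -0.04) and Clic4 at -0.16 (-0.30 to -0.02), each with an unadjusted p under 0.05 and an adjusted p of 0.999994. The values were -0.10 (-0.37 to 0.17) for Laptm5, -0.03 (-0.37 to 0.30) for Scp2, -0.03 (-0.19 to 0.14) for Nudc and -0.01 (-0.13 to 0.10) for Dhdds. Leaving out 1 array gave -0.17 (without mutant basal replicate 1) to -0.01 (without mutant basal replicate 4) for Laptm5.

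Laptm5 was set beside microglia markers because it is made by those cells. Of 25 measured markers, 0 were called between genotypes by limma and 1 had an unadjusted p under 0.05, with differences from -0.13 to 0.23 and a median of 0.05, where the median of all genes was 0.01. Over all genes 0.391% were called and 8.86% had an unadjusted p under 0.05, so a count of 0 called is near the background for a list of this size. Ly86 and Ptprc, the markers with the smallest p, differed by 0.23 and 0.08. The defining markers Cx3cr1, P2ry12 and Csf1r differed by 0.04, 0.05 and 0.05, against -0.55 for Laptm5. Of these, Cx3cr1 and P2ry12 were named after their values were seen. The mean of the markers was 7.49 to 7.65 in mutant learning arrays, 7.40 to 7.60 in WT learning arrays, 7.41 to 7.55 in mutant basal arrays and 7.40 to 7.45 in WT basal arrays. With that mean as a covariate Laptm5 differed by -0.58 between genotypes, and Phactr4 (0.22) and Clic4 (0.14) were no longer past the threshold. After learning 11 markers rose and 7 fell, where 54.8% of all genes were called in either direction. The rises with the smallest p were those of Ctss, a lysosomal protease (0.61), and Fcer1g (0.58). The falls with the smallest p were those of Sall1 (-0.48) and Csf1r, the receptor for colony stimulating factor (-0.30). Of the other defining markers, P2ry12 rose by 0.38 and Cx3cr1 fell by 0.08. Among 18 other lysosomal membrane genes and relatives of Laptm5, 0 were called between genotypes, 0 had an unadjusted p under 0.05, and 7 rose and 5 fell after learning, with Laptm4a at 0.21 and Laptm4b at 0.52.

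**Figure D5:**
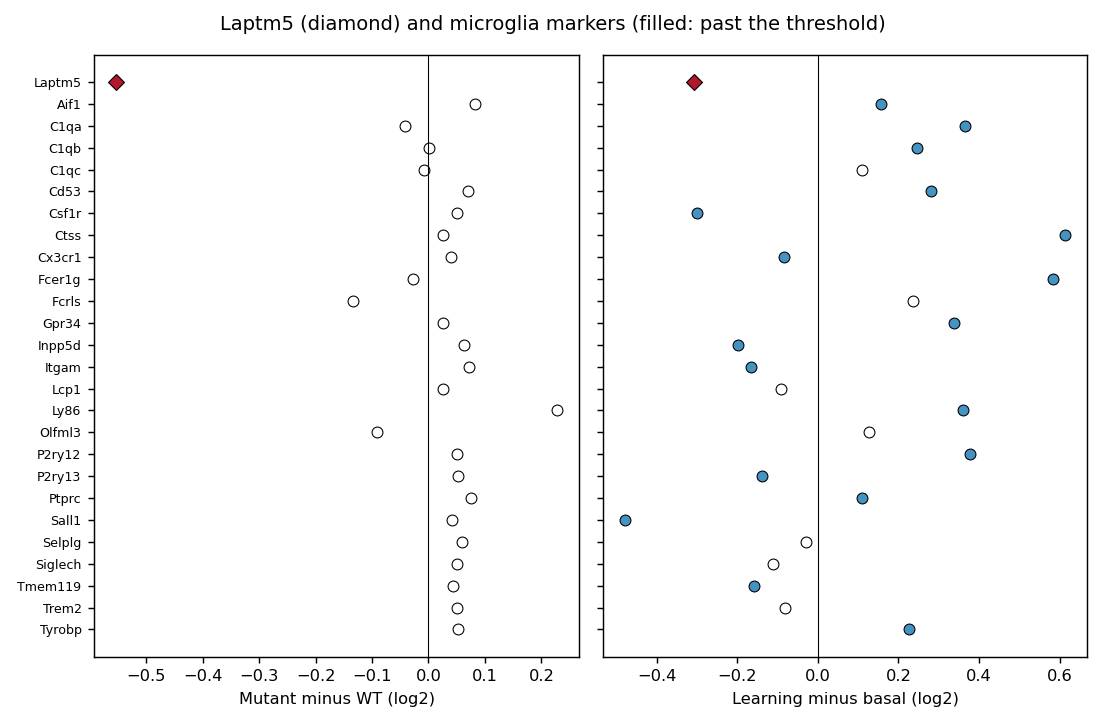
Mutant minus WT (left) and learning minus basal (right), log2, for Laptm5 (diamond) and 25 microglia markers (circles, filled where past the threshold). Between genotypes Laptm5 is at -0.55 and all markers lie between -0.13 and 0.23.

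No listed pathway partner of the other genes passed the threshold between genotypes in limma, and the number with an unadjusted p under 0.05 is given for each list. Of all genes 0.391% were past that threshold and 8.86% had an unadjusted p under 0.05. Counts of 0 called in lists of this size are therefore near the background, and the learning counts stand beside 54.8% of all genes called. Of 23 genes of peroxisomal oxidation and sterol transport listed with Scp2, 0 were called (1 unadjusted), and after learning 14 rose and 6 fell, among them the peroxisome assembly genes Pex13 (0.54) and Pex7 (0.60). The gene of this list with the largest fall, Scpep1 (-0.70), encodes a serine carboxypeptidase and is no peroxisomal enzyme. Of 31 genes of dolichol and N-glycan assembly listed with Dhdds, 0 were called between genotypes (3 unadjusted). The smallest adjusted p was that of Alg6, a glucosyltransferase of the pathway (-0.28, adjusted p = 0.0809, limma). Alg6 itself lies on chromosome 4, at -20.55 Mb from Foxo6. After learning 17 of the 31 rose and 4 fell. Nus1, the partner of Dhdds in one enzyme, rose by 0.53, whereas Dhdds was at 0.01.

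Of 28 dynein, LIS1 and NudC family genes listed with Nudc, 0 were called between genotypes (0 unadjusted), and 15 rose and 9 fell after learning. Dynll1, a dynein light chain, rose by 0.44 and Dctn1, the large dynactin subunit, fell by 0.40. Of 19 phosphatase and actin regulators listed with Phactr4, 0 were called between genotypes (1 unadjusted), and 2 rose and 12 fell after learning, with a median of -0.14, where the median of all genes was 0.03. Cfl1, the actin-severing cofilin, fell by 0.52. Of the 4 other CLIC genes, 0 were called between genotypes (0 unadjusted). After learning Clic5 rose by 0.13, and Clic3 and Clic6 fell by 0.19 and 0.49. Clic6 is also one of the choroid plexus markers. The lists were chosen with results known and are described, not tested.

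Markers of other cells are given as values. Choroid plexus markers were above 0 in 11 of 11 for mutant minus WT, with a median of 0.21, 0 called by limma and 5 with an unadjusted p under 0.05. After learning 0 of the 11 were above 0, 6 fell, and the median was -0.29. Their mean ranged from 6.15 to 7.16 in mutant learning arrays, 6.19 to 6.48 in WT learning arrays, 6.68 to 7.26 in mutant basal arrays and 6.07 to 7.21 in WT basal arrays. With that mean as a covariate the genotype difference was -0.50 for Laptm5, 0.47 for Scp2, 0.24 for Nudc, -0.12 for Dhdds, 0.24 for Phactr4 and 0.15 for Clic4, and Dhdds and Clic4 were no longer past the threshold. With it the learning difference was -0.38 for Laptm5, -0.30 for Nudc and -0.31 for Phactr4. Of 8 dentate granule cell markers, 3 were called as lower in the mutant (median -0.17), where 0.391% of all genes were called in either direction. The part of these markers in the results was not tested. Endothelial markers, set beside Clic4, had 0 of 13 called between genotypes (2 unadjusted) and a median of 0.04, and 2 rose and 7 fell after learning. Between genotypes 1 of 10 pyramidal cell markers was called as lower. Of the other lists, 0 of 10 interneuron, 0 of 10 astrocyte, 0 of 9 oligodendrocyte and 0 of 1 red blood cell markers were called. An unadjusted p under 0.05 was found for 4 pyramidal cell markers and for 6, 1, 0 and 0 of the others, in that order. Of all genes 8.86% had one. Interneuron markers were above 0 in 9 of 10, with a median of 0.11.

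The 6 genes were compared with one another by their deviations from group means over the 24 arrays, which removes the genotype difference that chose them. Of 15 pairs, 1 was called. Laptm5 and Dhdds had Pearson r = 0.59 (adjusted p = 0.0346) and Spearman rho = 0.68 (adjusted p = 0.0163), by a two-sided permutation test with 100000 shuffles within groups, adjusted over the 15 pairs. Their r was 0.67 without the 2 arrays farthest from the median of Laptm5. It was 0.74 among mutant arrays and 0.38 among WT arrays, and 0.73 after learning and 0.49 at basal. The r of all 15 pairs ran from -0.41 to 0.59 with a median of 0.04. Nudc and Dhdds, which are close neighbours on the chromosome, had r = 0.17 (adjusted p = 0.888). That value used the brighter Nudc probe, for which the copy it reads is uncertain.

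For each gene the 3 genes with the most similar log2 values over the 24 arrays were found by Pearson r, as a description that shares the 4 groups. For Laptm5 these were Klhl2 (0.82), Chst15 (0.79) and Plagl1 (0.78), all on other chromosomes. For Scp2 they were Alcam (0.83), Agbl4 (0.81) and Kcnh5 (0.74), of which Agbl4 lies on chromosome 4 at -9.87 Mb from Foxo6. For Dhdds they were Zranb1, Fzd7 and Sv2b (each 0.76). For Nudc they were Rab15 (0.91), Phactr3 (0.89), a relative of Phactr4, and Ppp1r11 (0.86), a phosphatase inhibitor. For Phactr4 they were Nr2f2 (0.86), Armc5 (0.83) and Nkiras2 (0.83). For Clic4 they were Mecr (0.68), Fn1 (0.65) and Paqr7 (0.64), of which Mecr and Paqr7 are 2 of the 10 other genes past the threshold in the window.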

How the data were processed

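RNA of 24 hippocampus samples was measured on Affymetrix arrays. The deposited values are on a log2 scale and come from RMA, run by the authors per the submitters' processing notes. RMA corrects background, equalises array quantiles and summarises probes. The RMA version and the chip definition were not given in the sources used here. Array medians were 6.16 to 6.30, 0 values were missing, and 0 columns belonged to no sample.

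Of 35511 probes, 21789 carry 1 gene symbol in the platform annotation, 1621 several and 12101 none. The probe with the highest mean stood for each of the 999 genes with several, which left 19938 genes, unfiltered. limma 3.58.1 (R 4.3.3; lmFit, eBayes with trend) fitted a mean per group over 24 arrays, with 20 residual degrees of freedom and 29.0 in all. Two-sided p-values were adjusted by Benjamini-Hochberg over all genes, and a gene was called under 0.05. Correlations used Python 3.11.15, numpy 2.4.6 and scipy 1.17.1. The script was tested on simulated data. Positions and promoter sequences are from RefSeq on GRCm38.p6, with positions for 19855 genes.

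The members and the 15 lists (220 of 238 genes measured) were chosen with earlier results of these data known. Named genes are the 6 members, Foxo6, the 3 genes most like each member by r, genes past the threshold in the window, those just inside and outside it, and list members with the smallest p per direction. Cx3cr1, P2ry12, Clic3, Clic5 and Clic6 were named after their values were seen. Alternatives covered array scaling, the variance model, array weights, the arrays fitted, probe choice, a filter on dim genes, the replicate number, marker covariates and leaving out each array.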

Additional observations from a re-analysis of the deposited data

Results flagged for a closer look

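Of 28 groups of 6 arrays checked, which are the 6 genes and Foxo6 in each of 4 groups, 1 held an array far from the others. Foxo6 in mutant basal replicate 6 was 6.59 against 6.32 for the next mutant basal array, a gap of 0.681 of the group's range, where 0.625 is the limit. Chance flags about 1 in 20 such groups. That value lies below every WT basal value, of which the lowest was 6.78. None of the 6 genes themselves had an array past the limit.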

How the results depend on the processing

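The genotype direction of all 6 genes was the same under every alternative run. Of 35 alternatives, Laptm5, Scp2 and Nudc were past the threshold in 35, Dhdds in 33, Phactr4 in 32 and Clic4 in 27, and the filter on dim genes removed Phactr4. The number of genes past the threshold between genotypes, 78, became 44 with each array centred on its median and 41 with the choroid plexus covariate. In WT, the count of members called after learning was 1 instead of 3 with arrays centred, and 1 to 3 when each array was left out. In the mutant it was 3 to 4. Phactr4 in WT also lost its call with a second quantile normalization (adjusted p = 0.0842), with only the groups compared (0.0641) and with the microglia covariate (0.0937). Clic4 in the mutant gained one with the second quantile normalization (0.00749), the filter on dim genes (0.042) and the microglia covariate (0.0294).

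Signs that turned belonged to values that were not called. With a second quantile normalization, Dhdds was at -0.0324 averaged over genotypes, -0.0384 in the mutant and -0.0265 in WT, and Clic4 in WT was at -0.0003. With the choroid plexus covariate Dhdds was at -0.0334, -0.0471 and -0.0196 in the same 3 comparisons. With the microglia covariate Dhdds in the mutant was at -0.0038, Clic4 in WT at -0.009 and the Scp2 interaction at 0.0162. Array weights gave interactions of 0.0022 for Scp2 and 0.0074 for Nudc. When each array was left out, Dhdds ran from -0.0016 to 0.0199 averaged over genotypes, -0.0204 to 0.0203 in the mutant and -0.0001 to 0.0361 in WT, and interactions ran from -0.0377 to 0.0037 for Dhdds, -0.0618 to 0.0139 for Nudc and -0.1121 to 0.0368 for Scp2. The cause was not tested.

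With the replicate number as a block, Phactr4 in WT was no longer called (adjusted p = 0.0604), leaving 2 of 6. Phactr4 was then also no longer past the genotype threshold that selected it, which left 5 of 6. Over all genes, the block took the count past the threshold between genotypes from 78 to 62 averaged over states, from 15 to 11 after learning and from 20 to 14 at basal, and the count called after learning was 10933 with the block and 10927 without. Same-numbered arrays of different groups correlated at -0.30 to 0.45 (7 of 36 over 0.1), and 3 of 24 arrays correlated best with their own number, so the numbers are not taken to pair the samples.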

Other observations

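The 10 other genes past the threshold in the window also divided by their learning difference, which did not choose them. After learning, averaged over genotypes, Pnrc2, a nuclear receptor coactivator, rose by 0.61, Stmn1, which destabilises microtubules, rose by 0.32, Hmgn2, which binds nucleosomes, rose by 0.20, and Tmem222 rose by 0.12. Trnp1, a nuclear protein of neural progenitors, fell by 0.38, and Mroh7 fell by 0.15. Gpn2 (0.01), Mecr (0.05), Echdc2 (0.02) and Paqr7 (-0.03) were not called by limma. In the window as a whole 122 of 249 genes were called, or 49%, with 50 higher and 72 lower after learning, against 54.8% of all genes.

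Echdc2 lies at -12.10 Mb, close to Scp2 at -12.22 Mb, and was lower in the mutant (-0.26) where Scp2 was higher (0.50). Gpn2 at 13.32 Mb was lower in the mutant (-0.31) where Nudc at 13.27 Mb was higher (0.24), and the 2 genes placed at 13.70 Mb, Dhdds and Hmgn2, were both lower (-0.15 and -0.13). These genotype differences are the values that chose the genes.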
